A study of Mus musculus with 15 samples.

Results

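The genes described here are 50 components of the motile cilium in mouse lung, followed across all arrays of an expression study of lung tumors and of lungs before tumors. They were chosen by name, as dynein arm subunits, radial spoke proteins, tektins, dynein assembly factors and other parts of the beating cilium. The choice rule did not use their measured values, but earlier results of these data were known when they were chosen. The counts of members called are therefore not independent of the data. All 50 were represented among the 18193 genes measured, each by its brightest probe set among those that name exactly 1 gene symbol. The study used 15 single-colour Affymetrix arrays in 5 groups of 3, all from mice of mixed background. They were Ptend/dSmad4d/d lung tumors at 12 months, wildtype lungs at 12 months, Ptend/dSmad4d/d lungs at 7 months, Ptend/d lungs at 7 months and wildtype lungs at 7 months. Ptend/d and Ptend/dSmad4d/d name the mutant genotypes as the labels spell them, the second carrying the Smad4 deletion in addition. Each tumor array came from part of 1 tumor, and the other arrays are labelled as part of whole lung, so the tumors were set against normal lung tissue and not against adjacent epithelium. The labels used here name no Cre driver and no number of animals per 7-month array, and the 7-month arrays may hold pooled RNA of several animals, so p-values measure the spread between these arrays, which may be technical in part.

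Motile cilia are the beating projections of multiciliated cells, which line the conducting airways and carry mucus out of the lung. Their core, the axoneme, is a ring of microtubule doublets around a central pair of single microtubules. Outer and inner dynein arms on the doublets slide them past each other, radial spokes and the nexin-dynein regulatory complex tie and regulate them, and tektins and other proteins line the inside of the doublets. Genes for these parts are switched on together when an airway cell becomes multiciliated, under transcription factors that include Foxj1 and the RFX family, whose proteins bind a promoter sequence called the X-box.

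Array medians of the deposited intensities lay between 90.9 and 99.5. Arrays of the same group correlated at 0.98 or more over all genes. The 18S ribosomal control probes read 1121 to 2036 in the tumors, against 5492 to 6933 in wildtype lung at 12 months, and 6556 to 8084 over the mutant and 6866 to 7032 over the wildtype arrays at 7 months. On 8 of the 9 arrays at 7 months both Xist and the Y-linked gene Eif2s3y read above 500. Xist marks female and Eif2s3y male tissue, and RNA of 1 animal would not normally give both. All 3 tumors and wildtype replicate 2 at 12 months showed Eif2s3y without Xist, and the other 2 wildtype arrays at 12 months the reverse. Sex is therefore confounded in part with the tumor comparison.

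Nearly all motile cilium genes were higher in the tumors and in both 7-month mutant lungs than in wildtype lung of the same age, and no member was called lower in any of these comparisons. In the tumors, 44 of 50 members rose at an adjusted p under 0.05 in limma's moderated test, with Benjamini-Hochberg adjustment over all genes, against 9.23% of all genes called higher and 6.02% called lower. In Ptend/dSmad4d/d lung at 7 months 42 of 50 rose, where 6.42% of all genes were called higher and 1.39% lower. In Ptend/d lung at 7 months 44 of 50 rose, where 9.79% of all genes were called higher and 5.40% lower. All 3 arrays of the group lay above all 3 wildtype arrays for 47 members in the tumors, 47 in Ptend/dSmad4d/d lung and 46 in Ptend/d lung, where the shares over all genes were 20.5%, 15.2% and 20.0%.

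The median member log2 fold change was 1.35 in the tumors, 0.98 in Ptend/dSmad4d/d lung and 0.96 in Ptend/d lung, while the median over all genes was 0.01, 0.01 and 0.02. Fold changes are on the scale of log2(intensity + 16), which understates the change of dim genes. The mean log2 intensity of the 50 members was 9.36 ± 0.34 in the tumors and 8.13 ± 0.19 in wildtype lung at 12 months (SD, n = 3 each). It was 8.64 ± 0.12 in Ptend/dSmad4d/d lung and 8.64 ± 0.05 in Ptend/d lung, against 7.73 ± 0.02 in wildtype lung at 7 months (SD, n = 3 each). The lowest tumor, at 8.99, was above the highest wildtype array at 12 months, at 8.34, and the lowest 7-month mutant array, at 8.52, was above the highest wildtype array of that age, at 7.75. In bulk tissue, more ciliated cells and more RNA per ciliated cell cannot be told apart.

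**Figure D1:**
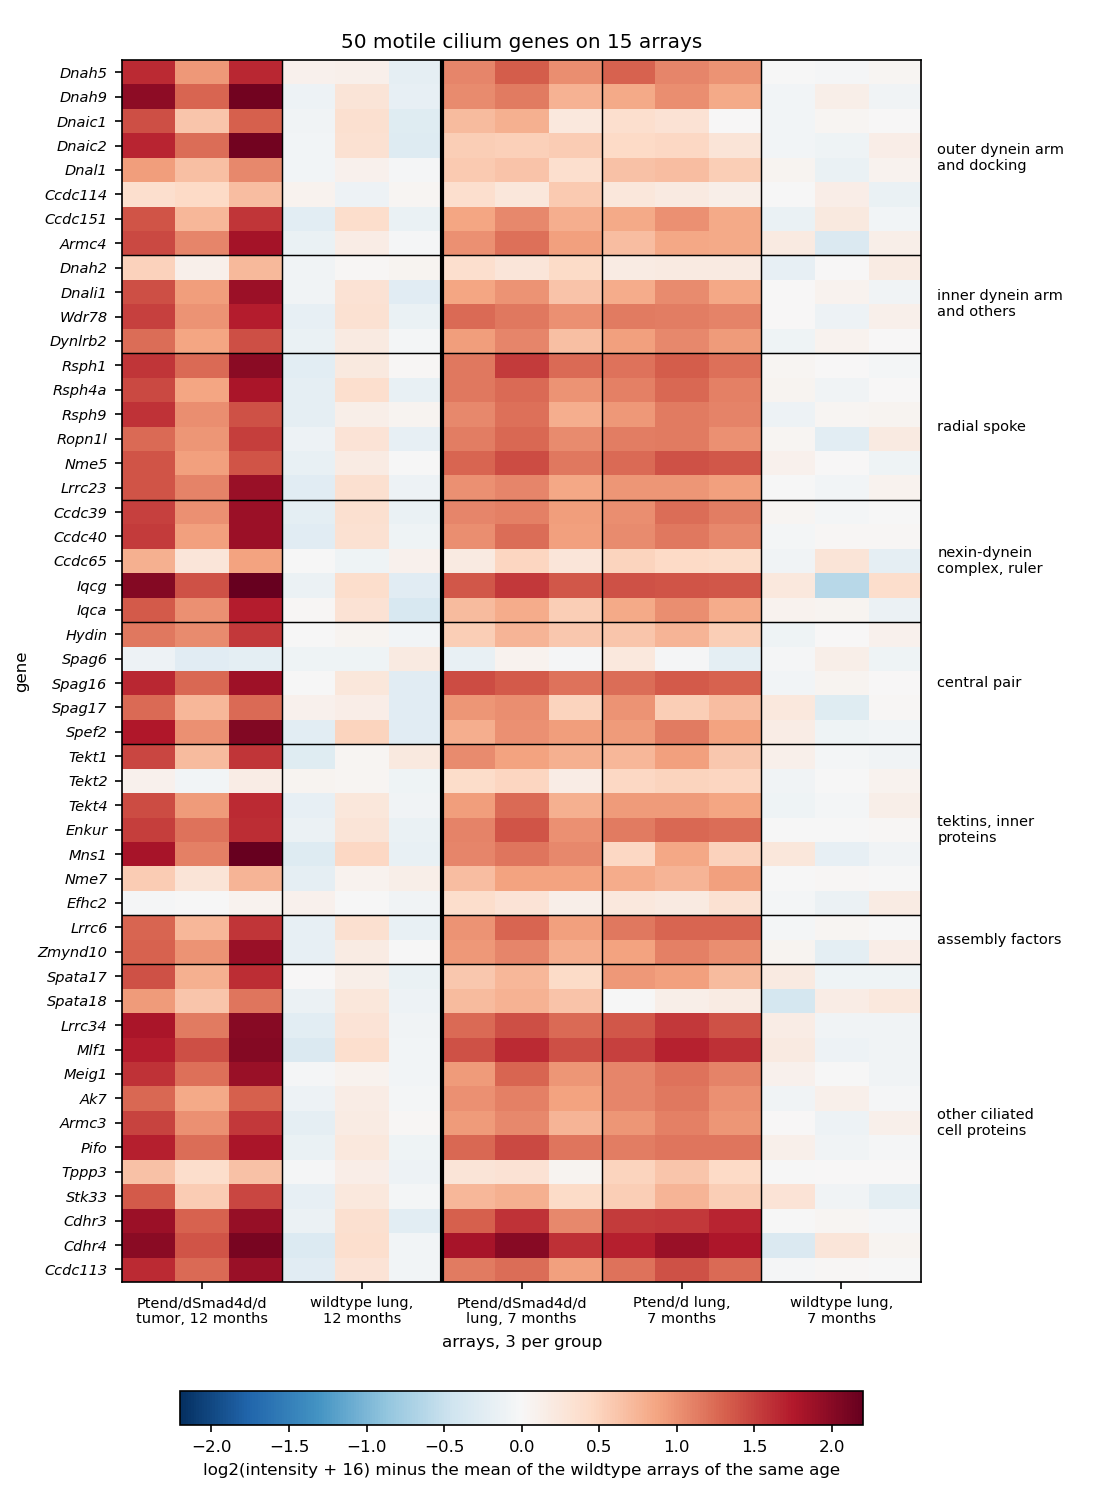
Each row is 1 of the 50 genes, grouped by structural class, and each column 1 of the 15 arrays, with colour giving log2(intensity + 16) minus the mean of the 3 wildtype arrays of the same age. The tumor and both 7-month mutant groups are above wildtype in nearly every row, and the exceptions are single rows such as Spag6, Tekt2 and Efhc2.

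Within most groups, many members had their highest value on the same array. Tumor replicate 3 had the highest value of the 3 tumors for 47 of the 50 members and tumor replicate 2 the lowest for 48. Tumor replicate 3 also had the highest array median of the tumors, at 99.5 against 98 and 98.1. Such counts were not made over all genes, so shifts of whole arrays were not told apart from shifts of the members. Wildtype replicate 2 at 12 months, the one with Y-linked signal, was the highest of its group for 42 members. At 7 months Ptend/dSmad4d/d replicate 2 was the highest of its group for 42 members and Ptend/d replicate 2 for 33, while in wildtype lung the highest value was spread over replicates 1, 2 and 3 with 16, 16 and 18 members. The count of called tumor members also changed with single arrays and was 19 to 47 when 1 array was left out, lowest without wildtype replicate 3 and highest without tumor replicate 2, and was 24 without wildtype replicate 1, 23 without tumor replicate 1 and 29 without tumor replicate 3. No member's tumor fold change that passed the test turned negative when an array was left out.

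The members lie on 17 chromosomes, with at most 5 on 1 chromosome. Promoter windows from RefSeq (GRCm38.p6), running from 250 bases before to 50 bases after each annotated start, were found for 42 of the 50 members, in 48 windows. The X-box was searched on both strands as GTNNCC, a gap of 0 to 3 bases and GGNAAC. It occurred in 9 of the 48 member windows (18.8%), where 2.8% of the 18009 windows of genes on the arrays and 2.34% of all 32851 windows held it. The shorter motif GTTGCC, which overlaps some X-box matches, occurred in 24 member windows (50%), where the share was 12.8% over the genes on the arrays. The forkhead letters TGTTTAC, of the kind Foxj1 and related factors bind, occurred in 2 member windows (4.17%), where the share was 2.97%. Some members have several windows, and windows of 1 gene can overlap. Counted by gene, 9, 23 and 2 of the 42 members held the X-box, GTTGCC and the forkhead letters. These were 21.4%, 54.8% and 4.76% of the members, against 3.33%, 14.7% and 3.38% of the genes on the arrays. All are matches of letters and not measured binding.

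The X-box matches are shown because this is the motif of the cilium gene regulators, and 9 members hold it. They are printed 5′ to 3′ on the strand of the gene, with genome positions in GRCm38.p6.
Ccdc151 (chr9:22002655-22002668, minus strand): GTTTCCTTGGGAAC
Iqca (chr1:90153523-90153536, minus strand): GTTGCCACGGAAAC
Mns1 (chr9:72438544-72438556, plus strand): GTTGCCGGGACAC
Ropn1l (chr15:31453697-31453709, minus strand): GTTGCCTGGAGAC
Spef2 (chr15:9748846-9748860, minus strand): GTTGCCCTGGGCGAC
Tekt4 (chr17:25471430-25471443, plus strand): GTGTCCTGGGAAAC
Zmynd10 (chr9:107547304-107547317, plus strand): GTTTCCATGGCGAC
The remaining 2 are shown within their whole windows, with the match in capitals.
Pifo (chr3:106001448-106001747, minus strand): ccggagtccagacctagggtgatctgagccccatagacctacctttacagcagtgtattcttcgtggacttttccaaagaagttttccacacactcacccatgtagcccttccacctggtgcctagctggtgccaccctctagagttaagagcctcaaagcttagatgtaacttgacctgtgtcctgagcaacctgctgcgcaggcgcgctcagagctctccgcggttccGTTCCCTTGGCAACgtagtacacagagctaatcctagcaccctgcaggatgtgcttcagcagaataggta
Lrrc23 (chr6:124779678-124779977, minus strand): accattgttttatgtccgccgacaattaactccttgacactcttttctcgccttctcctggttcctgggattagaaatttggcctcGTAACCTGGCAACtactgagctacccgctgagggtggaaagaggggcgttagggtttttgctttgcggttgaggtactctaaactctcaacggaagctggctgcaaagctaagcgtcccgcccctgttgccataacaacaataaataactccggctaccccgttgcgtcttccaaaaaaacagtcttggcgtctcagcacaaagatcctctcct
The match began 20 bases before the annotated start in Pifo and Ropn1l, 34 before it in Ccdc151, 100 before it in Iqca, 164 before it in Lrrc23 and 160 before it in Tekt4. It began at the annotated start in Zmynd10 and 8 and 15 bases past it in Spef2 and Mns1. Each of these 9 genes was called higher in the tumors and in both mutant lungs at 7 months. Most members were, 40 in all, so these calls do not set the genes with a match apart. Whether the motif goes with the rise was not tested.

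The outer dynein arm, the main motor that sets beat frequency, was represented by 8 genes for its chains and for the docking complex that anchors it. All 8 rose in the tumors, with log2 fold changes of 0.50 to 1.79 and a median of 1.32. Dnah9, an outer arm heavy chain, had intensities of 1356, 834 and 1509 in the tumors, against 307, 412 and 294 in wildtype lung at 12 months. Its log2 fold change of 1.79 ± 0.25 (SE, adjusted p = 0.01 in limma) was the largest of the class, and the lowest tumor exceeded the highest wildtype array. At 7 months Dnah9 read 652, 701 and 537 in Ptend/dSmad4d/d lung and 561, 643 and 562 in Ptend/d lung, against 296, 339 and 293 in wildtype lung at 7 months. Both mutant groups lay above wildtype, by 0.98 and 0.90 on the log2 scale.

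Dnah5 was the other outer arm heavy chain among the members and is a frequent site of mutation in human primary ciliary dyskinesia. It read 447, 273 and 454 in the tumors, against 142, 146 and 113 in wildtype lung at 12 months. Its 7-month values were 190.2, 231 and 183 in Ptend/dSmad4d/d lung and 223, 190.4 and 178 in Ptend/d lung, against 80.7, 79.7 and 84.5 in wildtype lung at 7 months, with no overlap between mutant and wildtype arrays. The log2 fold changes of Dnah5 were 1.42 ± 0.21, 1.15 ± 0.10 and 1.12 ± 0.10 (SE) in the tumors, Ptend/dSmad4d/d lung and Ptend/d lung, with adjusted p-values of 0.012, 3.76e-04 and 3.32e-04 in limma. Armc4, an outer arm docking protein, rose by 1.45 in the tumors and by 1.05 and 0.78 on the log2 scale in Ptend/dSmad4d/d and Ptend/d lung.

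At 7 months 6 of the 8 outer arm genes rose in each mutant genotype, and the exceptions were the same in both, the intermediate chain Dnaic1 and the docking protein Ccdc114. Dnaic1 read 278, 295 and 196 in Ptend/dSmad4d/d lung and 218, 209 and 165 in Ptend/d lung, against 158, 171 and 166 in wildtype lung at 7 months, so only the Ptend/dSmad4d/d arrays stood clear of wildtype, with adjusted p = 0.06 and 0.38 in limma for the mutant genotypes. At 12 months Dnaic1 had 524, 291 and 487 in the tumors, against 174, 239.6 and 151 in wildtype lung at 12 months, a called rise of 1.12 ± 0.26 (log2, SE). Ccdc114 differed less in every comparison, with log2 fold changes of 0.50, 0.40 and 0.19, called in the tumors alone. Dnal1, the arm's light chain, rose by 0.88, 0.52 and 0.62, and the docking protein Ccdc151 by 1.23, 0.91 and 0.89.

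Dnaic2, the second intermediate chain, read 1165, 857 and 1602 in the tumors, against 342, 452 and 290.1 in wildtype lung at 12 months. At 7 months it read 672, 665 and 676 in Ptend/dSmad4d/d lung and 623, 630.1 and 558 in Ptend/d lung, against 438, 428 and 504 in wildtype lung at 7 months. The 7-month differences were small beside the tumor difference, 0.54 and 0.39 against 1.67 on the log2 scale, although all were called. The probe set used for Dnaic2 carries the suffix _x_at, which Affymetrix gives to probes shared with other transcripts. Those used for Dnaic1 and Ropn1l carry it too. Those used for Ccdc39 and Cdhr4 end in _s_at, also treated here as shared. The only other probe set of Dnaic2 was dim, with a mean intensity of 21.6 and a log2 difference of -0.05 in the tumors (unadjusted p = 0.74 in limma).

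Among the inner dynein arm and other dynein chains, 3 of 4 rose in each comparison with wildtype. Dnali1, an inner arm light intermediate chain, read 1164, 817 and 1617 in the tumors, against 403, 535 and 358 in wildtype lung at 12 months. Wdr78, an intermediate chain linked to an inner arm, read 665, 619.6 and 559.7 in Ptend/dSmad4d/d lung and 613, 606 and 594 in Ptend/d lung, against 271, 249 and 292 in wildtype lung at 7 months, with log2 fold changes of 1.14 ± 0.08 and 1.12 ± 0.08 (SE). Dynlrb2, a roadblock-type light chain and one of the brighter members, rose by 1.17 in the tumors, 0.88 in Ptend/dSmad4d/d lung and 0.96 in Ptend/d lung. The exception was the inner arm heavy chain Dnah2, with 930.4, 708 and 1082 in the tumors, against 615, 661 and 684 in wildtype lung at 12 months. Its log2 differences of 0.44, 0.35 and 0.19 had adjusted p-values of 0.12, 0.057 and 0.21 in limma, though its arrays did not overlap with wildtype in any of the 3 comparisons.

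The 6 radial spoke genes rose in all 3 comparisons, and at 7 months they formed the tightest class of 4 or more genes. Their log2 fold changes ran from 1.22 to 1.60 in the tumors, 0.98 to 1.31 in Ptend/dSmad4d/d lung and 0.95 to 1.33 in Ptend/d lung. Rsph1, a spoke head protein, had 1802, 1429.6 and 2397 in the tumors, against 499.9, 687 and 607 in wildtype lung at 12 months. Its 7-month values were 820.5, 1076 and 875 in Ptend/dSmad4d/d lung and 850.1, 930.2 and 851 in Ptend/d lung, against 371, 362 and 349 in wildtype lung at 7 months, and no mutant array overlapped with wildtype. The other spoke head genes Rsph4a and Rsph9 rose by 1.38 and 1.34 in the tumors. Nme5, a spoke protein of the nucleoside diphosphate kinase family, differed slightly less in the tumors than at 7 months, with 1.22, 1.29 and 1.33 on the log2 scale. Lrrc23 and Ropn1l, also assigned to the spokes, rose by 1.46 and 1.25 in the tumors.

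Genes of the nexin-dynein regulatory complex and of the ruler that spaces the axonemal repeat rose in 4 of 5 cases in the tumors, 4 of 5 in Ptend/dSmad4d/d lung and 5 of 5 in Ptend/d lung. Iqcg, a subunit of the complex, showed the largest tumor fold change of all 50 members, with 322, 202 and 386 in the tumors, against 59.6, 92.5 and 53.8 in wildtype lung at 12 months. At 7 months Iqcg read 138, 161 and 139 in Ptend/dSmad4d/d lung and 143, 140.0 and 139 in Ptend/d lung, against 54.2, 23.1 and 62.8 in wildtype lung at 7 months. The log2 fold changes were 1.90 ± 0.27, 1.43 ± 0.22 and 1.39 ± 0.22 (SE), and 1 of the 7-month wildtype arrays, at 23.1, read well below the other 2. Ccdc39 and Ccdc40, which together form the ruler, changed alike, by 1.46 and 1.44 in the tumors, 1.04 and 1.05 in Ptend/dSmad4d/d lung and 1.13 and 1.09 in Ptend/d lung. Iqca, another subunit, rose by 1.36, 0.68 and 0.89. Ccdc65, a further subunit, read 136, 90.7 and 147 in the tumors, against 72.1, 67.5 and 78.8 in wildtype lung at 12 months, with adjusted p = 0.055 in limma.

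In the central pair apparatus, which signals through the spokes to the arms, 4 of 5 genes rose in every comparison. Spag16 had 1748, 1333 and 2023 in the tumors, against 538, 653 and 457 in wildtype lung at 12 months. At 7 months it had 1043, 988 and 880.0 in Ptend/dSmad4d/d lung and 898, 986 and 949 in Ptend/d lung, against 358, 392 and 379 in wildtype lung at 7 months, where its log2 fold changes of 1.33 ± 0.08 and 1.29 ± 0.08 (SE) carried the smallest adjusted p-values of the 50 members, 9.64e-05 and 7.05e-05 in limma. Hydin, whose loss in mice causes hydrocephalus, rose by 1.25 in the tumors, against 0.63 and 0.63 in the mutant lungs at 7 months. Spef2 rose by 1.61, 0.91 and 0.98, and Spag17 by 1.07, 0.83 and 0.74.

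Spag6 was the exception and read between 2.1 and 10.8 on all 15 arrays, below the added constant of 16. Its tumor values were 5.65, 3.75 and 4.21, against 5.97, 5.93 and 10.8 in wildtype lung, a difference that did not pass the test. RefSeq places the mouse Spag6 on chromosome 2 and a separate gene, Spag6l, on chromosome 16. Spag6l, added after its values were seen, read 627, 469 and 816 in the tumors, against 159, 221 and 169 in wildtype lung at 12 months. At 7 months Spag6l read 282, 324 and 246 in Ptend/dSmad4d/d lung and 284, 348 and 302 in Ptend/d lung, against 133, 119 and 136 in wildtype lung at 7 months, and its log2 fold changes of 1.69, 1.04 and 1.17 were all called, with adjusted p = 0.0094, 7.87e-04 and 3.77e-04 in limma.

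**Figure D2:**
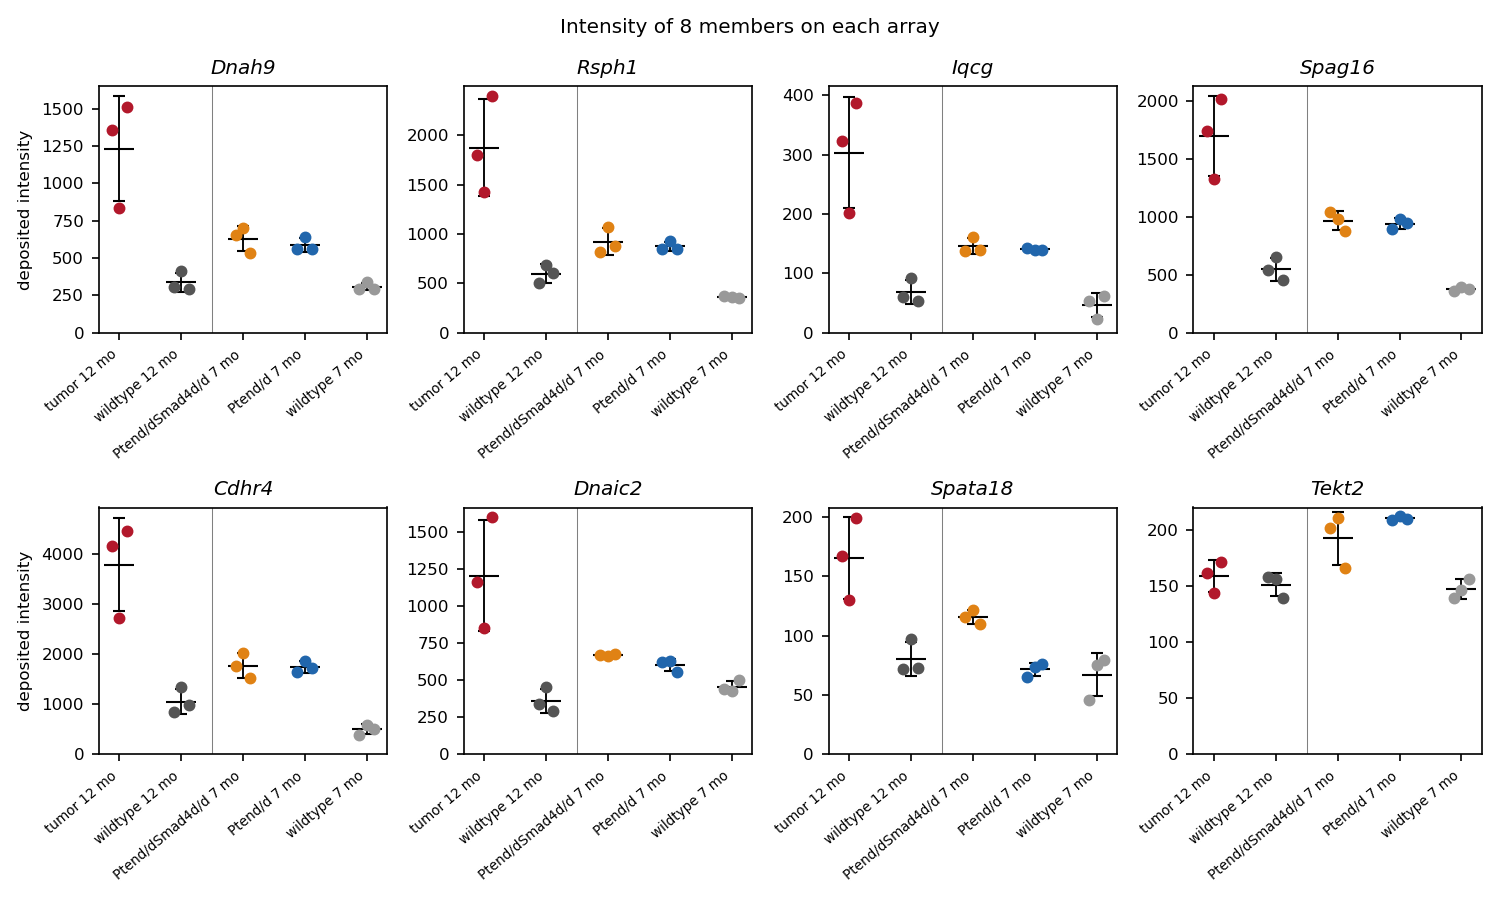
Points give the deposited intensity of 8 genes on each array, and bars the group mean with its SD over 3 arrays, with 12-month groups left and 7-month groups right of the grey line. Dnah9, Rsph1, Iqcg, Spag16 and Cdhr4 stand above wildtype in all 3 mutant groups, Spata18 reads near wildtype in Ptend/d lung, and Tekt2 overlaps wildtype in the tumors.

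Of the 7 tektins and doublet inner proteins, 4 rose in the tumors, 5 in Ptend/dSmad4d/d lung and 6 in Ptend/d lung. Mns1, a protein of the doublet interior, had 1039.9, 634 and 1391 in the tumors, against 232, 397 and 253 in wildtype lung at 12 months. Enkur and Tekt4 rose by 1.45 and 1.34 in the tumors and by 1.16 and 0.98 in Ptend/dSmad4d/d lung. Tekt1 rose by 1.25, 0.90 and 0.74. Tekt2 did not follow them, with 162, 144 and 172 in the tumors, against 158, 156 and 139.7 in wildtype lung at 12 months, which overlapped. At 7 months Tekt2 read 202, 211 and 166 in Ptend/dSmad4d/d lung and 209, 212 and 210.4 in Ptend/d lung, against 139.5, 147 and 157 in wildtype lung at 7 months, with adjusted p = 0.051 for Ptend/dSmad4d/d lung and 0.009 for Ptend/d lung in limma.

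Nme7, a doublet protein and a component of the gamma-tubulin ring, was called in both 7-month genotypes and not in the tumors. It read 336, 389 and 390.3 in Ptend/dSmad4d/d lung and 371, 353 and 392 in Ptend/d lung, against 201, 207 and 201 in wildtype lung at 7 months. In the 12-month comparison it had 554, 456 and 635 in the tumors, against 319.8, 392 and 408 in wildtype lung at 12 months, where no array overlapped but adjusted p was 0.066 in limma. Efhc2 was dim, with 25.6, 26.0 and 28.2 in the tumors, against 28.8, 25.7 and 24.0 in wildtype lung at 12 months, and was called in no comparison.

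Both dynein assembly factors, which preassemble dynein arms in the cytoplasm, rose in all 3 comparisons. Zmynd10 had 353, 282 and 540.5 in the tumors, against 116, 154 and 133 in wildtype lung at 12 months, and 233, 253 and 207 in Ptend/dSmad4d/d lung and 219, 259 and 244 in Ptend/d lung, against 118, 94.3 and 126 in wildtype lung at 7 months. Its log2 fold changes were 1.40 ± 0.24, 0.95 ± 0.12 and 1.0 ± 0.12 (SE). Those of Lrrc6 were 1.20 ± 0.25, 1.05 ± 0.10 and 1.24 ± 0.10.

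The remaining 13 members are proteins of ciliated cells outside these structures or without a fixed place in them. All 13 rose in the tumors, 12 in Ptend/dSmad4d/d lung and 12 in Ptend/d lung, with median log2 fold changes of 1.57, 1.06 and 1.12. Cdhr4, a cadherin-related protein, had 4163, 2725 and 4466 in the tumors, against 835, 1337 and 990.1 in wildtype lung at 12 months. Its 7-month values were 1773, 2017 and 1518 in Ptend/dSmad4d/d lung and 1645, 1872 and 1717 in Ptend/d lung, against 390.3, 590.4 and 510.0 in wildtype lung at 7 months, the largest difference among the members in both genotypes, with log2 fold changes of 1.81 ± 0.15 and 1.80 ± 0.15 (SE) beside 1.82 ± 0.25 in the tumors. Cdhr3, the related cadherin through which rhinovirus C enters human airway cells, rose by 1.70, 1.32 and 1.59. Mlf1, a protein found in cilia, read 2964, 2373 and 3638 in the tumors, against 706, 1143 and 849 in wildtype lung at 12 months and rose by 1.72, 1.48 and 1.60.

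Pifo, linked to primary cilium disassembly, read 1138, 1305 and 1076 in Ptend/dSmad4d/d lung and 1031, 1077 and 1072 in Ptend/d lung, against 505, 439.7 and 456 in wildtype lung at 7 months, with no overlap. Ak7, an adenylate kinase of motile cilia, rose by 1.14, 1.0 and 1.07. Meig1, known for its part in sperm formation in mice, rose by 1.57, 1.06 and 1.12, and Lrrc34 by 1.65, 1.30 and 1.44. Ccdc113, Armc3, Spata17 and the kinase gene Stk33 were called in all 3 comparisons, with log2 fold changes of 1.12 to 1.59 in the tumors, 0.58 to 1.09 in Ptend/dSmad4d/d lung and 0.61 to 1.28 in Ptend/d lung.

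The weakest of the 13 in the tumors was Tppp3, a tubulin polymerization-promoting protein, with 3444, 2883 and 3450.0 in the tumors, against 2149.8, 2426 and 2036 in wildtype lung at 12 months. At 7 months Tppp3 read 2644, 2691 and 2255 in Ptend/dSmad4d/d lung and 3052, 3309 and 2925 in Ptend/d lung, against 2134, 2172 and 2167 in wildtype lung at 7 months, called in Ptend/d lung (adjusted p = 0.0044) and not in Ptend/dSmad4d/d lung (adjusted p = 0.15 in limma). Spata18, a regulator of mitochondrial quality, showed the other pattern, with 116, 122 and 109.8 in Ptend/dSmad4d/d lung and 65.1, 73.5 and 76.0 in Ptend/d lung, against 46.0, 75.3 and 79.6 in wildtype lung at 7 months. It was called in Ptend/dSmad4d/d lung (adjusted p = 0.028) and not in Ptend/d lung (adjusted p = 0.73 in limma). The difference between these genotypes itself did not pass the test in either gene.

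**Figure D3:**
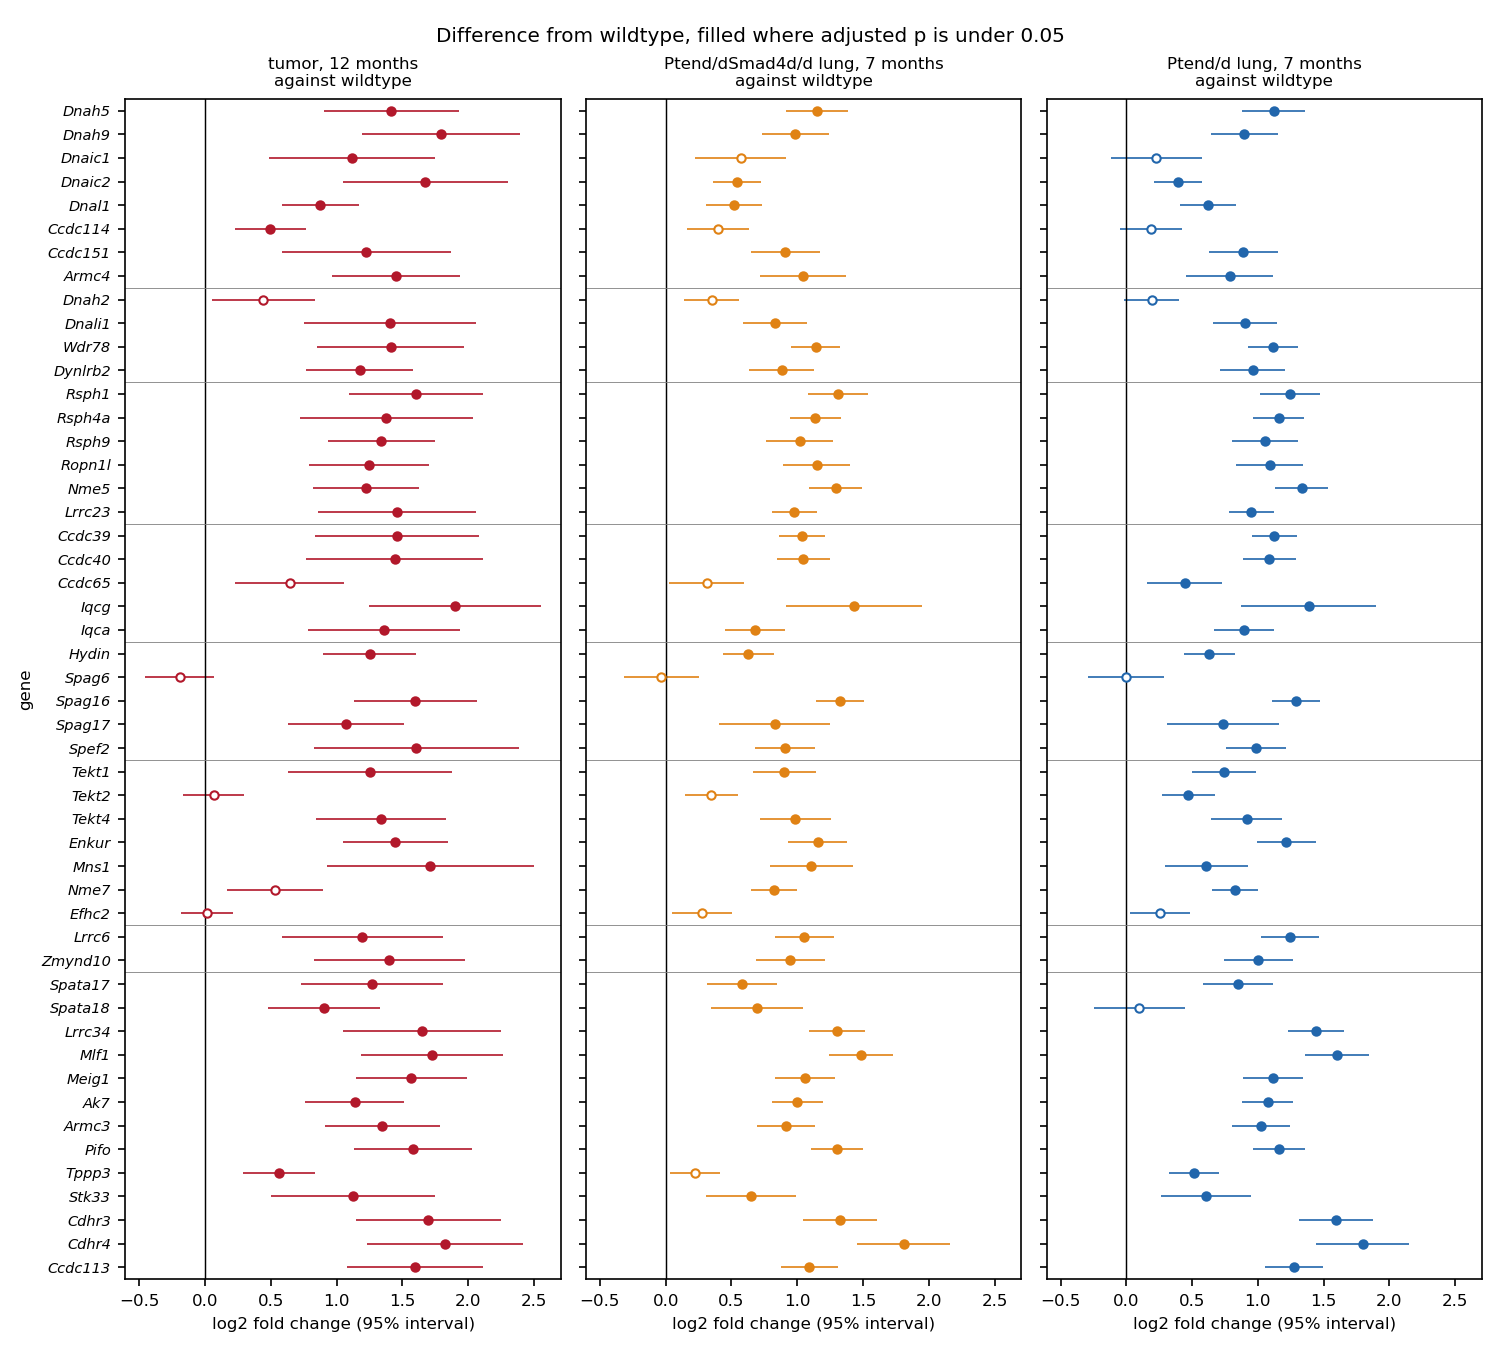
Points give the log2 fold change of each member against wildtype of the same age in the tumors, in Ptend/dSmad4d/d lung and in Ptend/d lung, and lines its 95% interval, with filled points where the adjusted p was under 0.05. Of the 50 points, 44, 42 and 44 are filled, and the tumor intervals are wider than those at 7 months.

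The 6 members not called in the tumors were Dnah2, Ccdc65, Spag6, Tekt2, Nme7 and Efhc2. The 8 not called in Ptend/dSmad4d/d lung were Dnaic1, Ccdc114, Dnah2, Ccdc65, Spag6, Tekt2, Efhc2 and Tppp3, and the 6 not called in Ptend/d lung were Dnaic1, Ccdc114, Dnah2, Spag6, Efhc2 and Spata18. Among called members the fold change ran from 1.41 to 3.73 in the tumors, 1.43 to 3.51 in Ptend/dSmad4d/d lung and 1.31 to 3.47 in Ptend/d lung. It was at least 2-fold for 40 members in the tumors and for 23 in each 7-month genotype. The 7-month comparisons share their wildtype arrays.

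By class, the median log2 fold change in the tumors lay between 1.25, for the central pair and for the tektin class, and 1.57 for the ciliated cell proteins without a fixed place, and members within the tektin class alone ran from 0.02 to 1.71. At 7 months the class medians ran from 0.74 for the outer arm to 1.14 for the spokes in Ptend/dSmad4d/d lung, and from 0.70 for the outer arm to 1.13 for the spokes in Ptend/d lung. Within the outer arm class members ran from 0.40 to 1.15 in Ptend/dSmad4d/d lung and from 0.19 to 1.12 in Ptend/d lung. These class values are descriptions, with no test between classes.

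Between the mutant genotypes at 7 months, which asks whether the added Smad4 deletion went with a different level of cilium genes, no member passed the test in limma. Over all genes 0.918% were called higher and 0.841% lower. The median member difference, Ptend/dSmad4d/d minus Ptend/d, was -0.01 on the log2 scale, 23 members were higher, and the median standard error was 0.10. The 95% interval of the difference lay within 1.5-fold either way for 46 of the 50 members and within 2-fold for all 50. At an unadjusted p under 0.05 there were 4 of the 50 members, where the share over all genes was 17.9%, and the smallest adjusted p was 0.10.

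Spata18 and Mns1 were the highest of these, with differences of 0.59 ± 0.15 and 0.50 ± 0.14 (log2, SE) and 95% intervals of 0.25 to 0.94 and 0.19 to 0.81. Mns1 read 426, 456 and 421 in Ptend/dSmad4d/d lung, against 271, 363 and 280.2 in Ptend/d lung, with no overlap. Tppp3 and Spata17 were the lowest, with -0.29 ± 0.08 and -0.27 ± 0.12. All 3 Ptend/dSmad4d/d arrays lay above all 3 Ptend/d arrays for 5 members, Dnaic2, Armc4, Dnah2, Mns1 and Spata18, where the share over all genes was 14.4%, and below them for Iqca and Tppp3, where it was 14.2%.

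**Figure D4:**
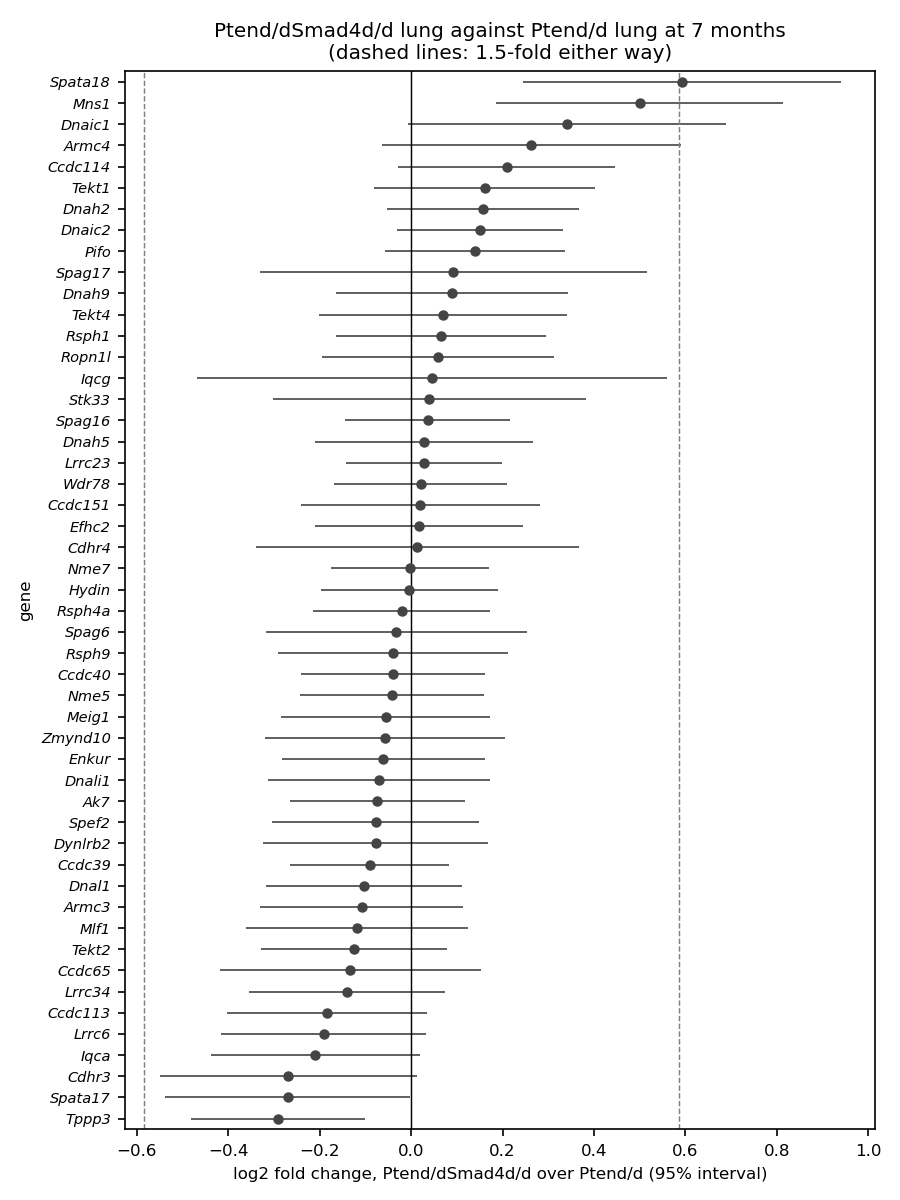
Points give the log2 fold change of each member, Ptend/dSmad4d/d over Ptend/d lung at 7 months, and lines its 95% interval, sorted by size, with dashed lines at 1.5-fold either way. Intervals of 46 of the 50 genes stay between the dashed lines, and Spata18 and Mns1 are at the top.

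Most members differed from wildtype by more in the tumors than in Ptend/dSmad4d/d lung at 7 months, but the test of that difference, fitted over all 15 arrays, called 1 of the 50. The tumor effect exceeded the 7-month effect in 45 members, with a median difference of 0.33 on the log2 scale and a median standard error of 0.24. The called gene was Dnaic2, at 1.13 ± 0.27 (SE, adjusted p = 0.042 in limma), while 1.75% of all genes were called higher and 1.41% lower. At an unadjusted p under 0.05 there were 9 of the 50 members, where the share over all genes was 18.8%. When 1 array was left out, Dnaic2 stayed called without tumor replicate 2 and without wildtype replicate 2 at 12 months, and lost its call without each of the other 10, with adjusted p-values of 0.0039 to 0.098 in limma. Without tumor replicate 2, 9 members were called. Age, tissue, array set and the Xist and Y-linked signals all differ between these effects and cannot be told apart.

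Members with a large effect in one also tended to have one in the other. Over the 50 members the tumor and 7-month Ptend/dSmad4d/d log2 fold changes, which share no arrays, had a Pearson correlation of 0.82 and a Spearman correlation of 0.76, given as a description because both are read from the same probe sets. The members' mean log2 intensity in wildtype lung was 8.0 to 8.34 at 12 months and 7.71 to 7.75 at 7 months.

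Other genes of the cilium, listed by their known function, moved the same way. Of 37 further axonemal genes 31 rose in the tumors, 30 in Ptend/dSmad4d/d lung and 30 in Ptend/d lung, with median log2 fold changes of 1.17, 0.71 and 0.67 and none called lower. Cfap126, needed for positioning of basal bodies and cilia, rose by 1.42, 1.23 and 1.16, and Cfap53 by 1.94 in the tumors. Of 33 genes of intraflagellar transport and the BBSome, which carry cargo along both motile and primary cilia, 25, 20 and 26 rose and none fell, with smaller medians of 0.73, 0.44 and 0.50. Dync2li1 and Ift172 had the smallest adjusted p-values of this list in the tumors and in Ptend/dSmad4d/d lung, with log2 fold changes of 1.05 and 1.44 in the tumors and 1.0 and 0.89 in Ptend/dSmad4d/d lung.

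Cytoplasmic dynein and dynactin, the related motor that every cell uses, did not move in this way. Of 16 genes 1 rose in the tumors, none in Ptend/dSmad4d/d lung and 2 in Ptend/d lung, where 1 fell, in limma. Over all genes 9.23%, 6.42% and 9.79% were called higher. At an unadjusted p under 0.05 in limma 2, 2 and 6 of the 16 differed, where 5594, 4242 and 5285 of all 18193 genes did. The list medians were -0.03, 0.00 and -0.03. The gene that rose in the tumors was Dynll1, a light chain also used outside dynein, by 0.39.

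Among 13 regulators of multiciliation 4 rose in the tumors, 4 in Ptend/dSmad4d/d lung and 5 in Ptend/d lung, and none fell. Foxj1, the main transcription factor of motile cilium genes, read 2587, 1785 and 2603 in the tumors, against 937, 1185 and 1089 in wildtype lung at 12 months. At 7 months Foxj1 had 791, 809 and 697 in Ptend/dSmad4d/d lung and 597, 564 and 639 in Ptend/d lung, against 279, 292 and 364 in wildtype lung at 7 months, with log2 fold changes of 1.26 ± 0.11 and 0.92 ± 0.11 (SE) beside 1.09 ± 0.18 in the tumors. Deup1, which builds the extra centrioles of multiciliated cells, rose by 1.62, 1.29 and 1.11. Myb, an early factor of multiciliation, rose by 0.90, 0.70 and 0.86. Rfx3 rose at 7 months by 0.59 and 0.61, and in the tumors it differed by 0.96 with an adjusted p of 0.050. Rfx2 rose in the tumors by 1.16 and differed by 0.39 and 0.39 at 7 months, with adjusted p = 0.14 and 0.1 in limma.

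Markers of other cells moved with the groups too, and their part in the cilium result was not tested. Of 10 general epithelial markers all rose in the tumors, with a median of 1.27, close to that of the cilium genes. At 7 months 7 rose in Ptend/dSmad4d/d lung and 7 in Ptend/d lung, where 1 fell, with medians of 0.53 and 0.44, lower than those of the cilium genes. Their summed intensity ranged over 34282 to 40120 in the tumors and 17275 to 19310 in wildtype lung at 12 months. It ranged over 25807 to 27207 in Ptend/dSmad4d/d lung and 23213 to 24323 in Ptend/d lung, against 19844 to 22044 in wildtype lung at 7 months. The summed intensity of the cilium members was 39619 to 62624 in the tumors and 18221 to 23783 in wildtype lung at 12 months. At 7 months it was 26521 to 32145 in Ptend/dSmad4d/d lung and 29230 to 31731 in Ptend/d lung, against 14790 to 14982 in wildtype lung.

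Of 10 club cell markers, the secretory neighbours of ciliated cells in the airway, 4, 6 and 7 rose in the tumors, Ptend/dSmad4d/d lung and Ptend/d lung. Their median log2 fold changes were 0.62, 0.34 and 0.45. The summed intensity of these markers was 62099 to 62619 in the tumors and 48470 to 53329 in wildtype lung at 12 months. The sum is weighted to a few very bright markers and says little on the dimmer ones. At 7 months it was 63542 to 66962 in Ptend/dSmad4d/d lung and 63952 to 66710 in Ptend/d lung, against 55396 to 55931 in wildtype lung. Basal cell markers rose in 7, 3 and 0 of 8 cases and mucous cell markers in 7, 4 and 3 of 7. Basal markers summed to 2879 to 7204 in the tumors, 676 to 1272 in Ptend/dSmad4d/d lung and 456 to 469 in Ptend/d lung, against 237 to 328 and 440.0 to 474 in wildtype lung at 12 and 7 months.

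Endothelial markers fell in 6 of 10 cases in the tumors and 3 of 10 in each 7-month genotype, and 4 of 7 macrophage markers fell in the tumors and none at 7 months. Their sums were 8883 to 13845 and 9679 to 12107 in the tumors, against 18300 to 21316 and 21502 to 28174 in wildtype lung at 12 months. In wildtype lung at 7 months they were 28879 to 30040 and 7164 to 12814, so the macrophage sums of the tumors lay within that younger range. Of 7 alveolar type 2 markers none was called in the tumors in limma (1 at an unadjusted p under 0.05), 1 rose in Ptend/dSmad4d/d lung, and 3 rose and 1 fell in Ptend/d lung. Of 8 alveolar type 1 markers 1 fell in the tumors and 2 in Ptend/dSmad4d/d lung. Many cilium genes are also used by sperm. None of 8 male germ cell markers was called against wildtype in limma. Their sums of 224 to 272 in the tumors and 235 to 271 in wildtype lung at 12 months overlapped. Most of these markers read near or below the constant added to the intensities in every group. The lack of calls therefore cannot decide whether germ cell genes changed. At an unadjusted p under 0.05 there were 0 germ cell markers in the tumors, 0 in Ptend/dSmad4d/d lung and 2 in Ptend/d lung.

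**Figure D5:**
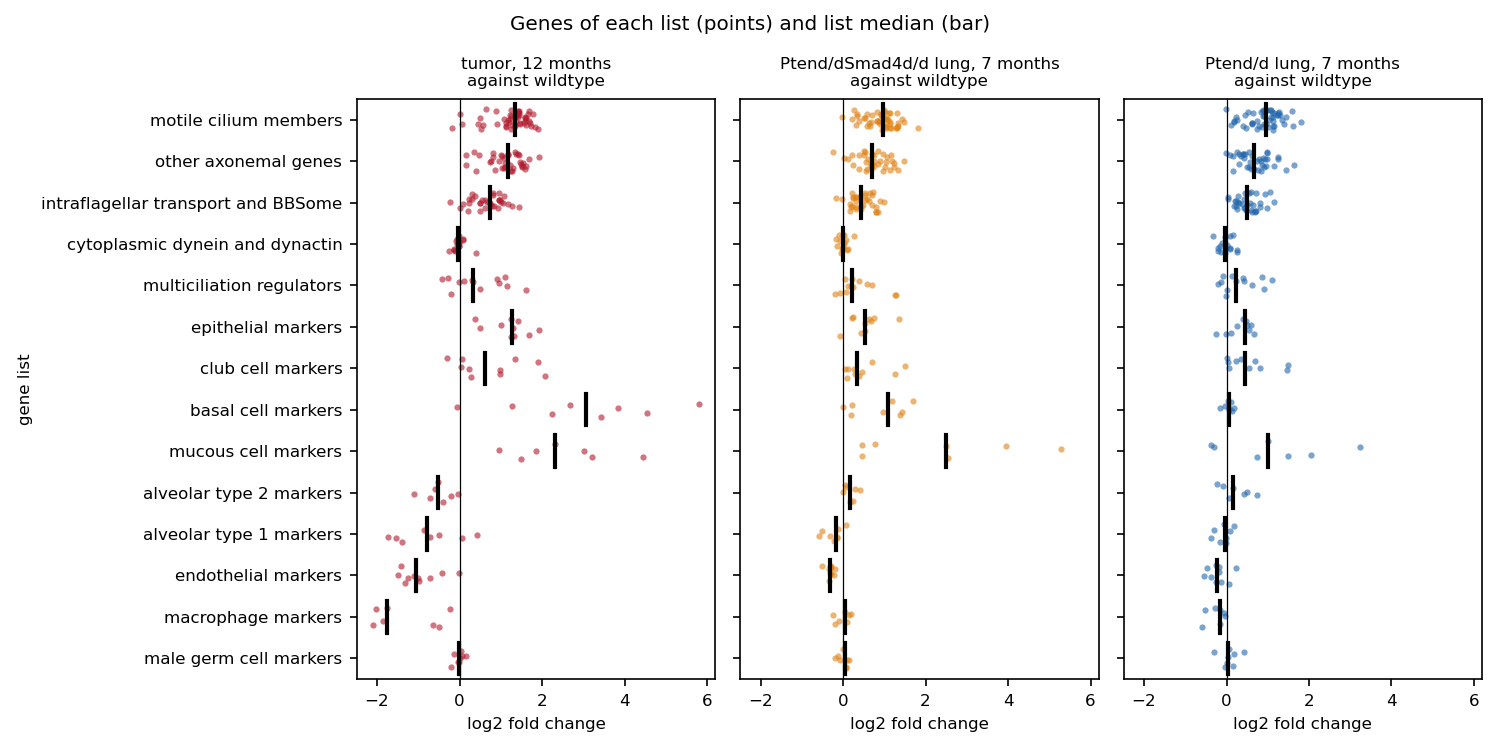
Each point is the log2 fold change of 1 gene against wildtype of the same age, black bars are list medians, and the panels give the tumors, Ptend/dSmad4d/d lung and Ptend/d lung. Nearly all cilium members and other axonemal genes lie to the right of 0 in all 3 panels, cytoplasmic dynein and dynactin lie around 0, and basal cell markers lie to the right in the tumors and near 0 in Ptend/d lung.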

How the data were processed

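Total RNA from 15 lung or tumor samples was labelled as biotinylated cRNA and hybridised to single-colour Affymetrix arrays, per the labels' protocols. The deposited values are linear intensities of 45101 probe sets. The scanner settings, summarization and scaling are not given in the sources used here. Groups were taken from the labels' genotype, tissue and age. Gene names came from GEO's annotation of the array, in which 34958 probe sets had 1 gene symbol and were kept and 932 had several. Intensities were used as log2(intensity + 16), with no further scaling, and the probe set with the highest mean represented each of 18193 genes. Of the 50 members, 20 had more than 1 probe set.

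Groups were compared with limma 3.58.1 in R 4.3.3 (lmFit and eBayes). The 12-month fit used its 6 arrays and the 7-month fit its 9, while the difference of effects used all 15. A call was an adjusted p under 0.05, with Benjamini-Hochberg adjustment over all genes. Classes of the members were written by hand from their known roles. The members and the gene lists were chosen with earlier results of these data known. All members may be named. From each list the genes with the smallest adjusted p, up to 4, and Foxj1, Rfx2, Rfx3 and Myb may be named. Spag6l was added later. The pipeline was also run on simulated data. The simulated noise was drawn separately for each gene, so that run does not bear on sets of genes that vary together.

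Replicate numbers at 7 months come from the titles. Residuals of same-numbered arrays correlated at -0.13 to 0.16, and those of differently numbered arrays at -0.18 to 0.15, so the numbers were not taken as pairs. The alternatives were other scalings, added constants, filters, probe set choices, variance models, fits with fewer or more groups, and leaving out each array. With 3 arrays per group, their number limits the precision.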

Additional observations from a re-analysis of the deposited data

Results flagged for a closer look

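Dnaic2 had a larger difference from wildtype in the 12-month tumors than in Ptend/dSmad4d/d lung at 7 months by the test of the difference itself. In that contrast age, tissue, array set and the Xist and Y-linked signals cannot be told apart. The tumor effect minus the Ptend/dSmad4d/d effect at 7 months was 1.13 on the log2 scale (adjusted p = 0.042 in limma over all 15 arrays). It read 1165, 857 and 1602 in the tumors and 342, 452 and 290.1 in wildtype lung at 12 months. At 7 months it read 672, 665 and 676 in Ptend/dSmad4d/d lung and 438, 428 and 504 in wildtype lung. Its dim second probe set gave a difference of -0.14. The call was lost when any of 10 of the 12 arrays was left out.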

How the results depend on the processing

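The direction of the members' change from wildtype held in the settings tried for every called member except Dnaic2. When probe sets shared between transcripts were left out, Dnaic2 passed to its dim second probe set, with -0.047 in the tumors and -0.14 for the tumor effect minus the 7-month effect. The settings did not use each further probe set of a member by itself. Of the unused probe sets, the 9 with a mean intensity of 64 or more had positive differences in all 3 comparisons with wildtype. Of the 16 dimmer ones, 11 were positive in the tumors and 12 in each 7-month genotype. In the tumors 1 of these 16 was lower at an unadjusted p under 0.05 in limma. Counts of called members were 37 to 47 in the tumors, 38 to 46 in Ptend/dSmad4d/d lung and 40 to 44 in Ptend/d lung over the alternatives other than leaving out an array. The lowest of these tumor counts came from setting the tumors against the 1 wildtype array with Y-linked signal and no Xist. The spread of that array is assumed like that of the other groups. That fit also held the 7-month arrays, unlike the main tumor fit, and its nearest counterpart, the fit of all 15 arrays, called 47. Leaving out 1 array gave 19 to 47, 38 to 43 and 40 to 43, and 18 of the 44 called tumor members kept their call in every setting, as did 35 of 42 and 37 of 44 members at 7 months. Between Ptend/dSmad4d/d and Ptend/d lung, 2 members were called with array weights and 1 when only these 2 groups were fitted. For the tumor effect minus the 7-month effect the count of members was 2 with an added constant of 64, with dim genes left out, with a trended robust prior and with array weights. It was 0 with an added constant of 1, with the mean of all probe sets and without shared probe sets, and 0 to 9 when 1 array was left out. The cause of these changes was not tested. With the replicate block at 7 months the counts were 43 in Ptend/dSmad4d/d lung, 44 in Ptend/d lung and 0 between the genotypes.

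Values near 0 changed sign in members that were not called. Efhc2 in the tumors was -0.0099 with median centring, -0.014 with quantile normalization and -0.021 to 0.060 when 1 array was left out. Spag6 in Ptend/d lung was 0.050 with array weights and 0.0013 with an added constant of 64, and -0.12 to 0.11 when 1 array was left out. In Ptend/dSmad4d/d lung Spag6 was -0.094 to 0.032 when 1 array was left out, and Spata18 in Ptend/d lung was -0.10 to 0.22. Members that read near or below the added constant, such as Spag6, carry no usable measure of change.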
